A study of Mus musculus with 5 samples.

Results

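The 10 genes described here encode transcription factors of the immediate early response: the AP-1 genes Fos, Fosb, Jun, Junb and Jund, the zinc-finger genes Egr1 and Egr2, and the orphan nuclear receptor genes Nr4a1, Nr4a2 and Nr4a3. They were taken by symbol from the 31053 genes of each deposited matrix, and all 10 were found. Their unique molecular identifiers (UMIs, 1 per captured mRNA molecule) were read in cells of 3 gates. The Foxp3 gate holds cells with at least 1 UMI of Foxp3, the transcription factor that defines regulatory T (Treg) cells. The Cd4 gate holds cells with no Foxp3 UMI and at least 1 Cd4 UMI. The macrophage gate holds cells with 5 or more UMIs of C1qa, C1qb and C1qc together, the complement genes of tissue macrophages.

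Immediate early genes are switched on within minutes of a stimulus by factors already present in the cell, and most of their mRNAs are short-lived. Fos and Jun family proteins pair through leucine zippers to bind AP-1 sites. In T cells the antigen receptor raises AP-1 through kinase cascades, and it raises the Egr and Nr4a genes mainly through Ras/MAPK and calcium signals. Egr2 and the Nr4a receptors are known for restraining T cells after receptor signalling, and the Nr4a receptors also help to maintain Treg cells. Warm enzymatic digestion of tissue is known to induce Fos, Jun and Egr1 in many cell types.

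CD4 T cells had been sorted from mouse kidney after ischemia-reperfusion injury, in which blood flow is stopped and restored, and were profiled with a droplet 3′ single-cell kit. All mice were 10 weeks old and carried loxP-flanked Il1rl1 (Il1rl1fl/fl), the gene for ST2, the interleukin-33 receptor. The 2 control libraries, titled Wild Type, have no Cre, and the 3 libraries labelled knockout carry Foxp3YFP-Cre as well, which expresses Cre in Foxp3-positive cells, so that Cre itself differs between the groups. Kidneys were digested with collagenase type 1 at 4 mg/ml for 7 min at 37 °C, then dead cells and debris were removed and the CD4 sort used antibodies that included CD25 and CD127. The labels do not say that the libraries came from separate animals, so p-values measure the spread between these libraries, which may in part be technical.

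Of 40778 cell barcodes, 38417 had at least 500 detected genes and under 10% mitochondrial UMIs, 4241 to 10320 per library. Libraries differed in depth: control replicate 1 had a median of 13534 UMIs per retained cell and the other 4 libraries had 3786 to 7546. The gates held 2995 (Foxp3), 26978 (Cd4) and 3024 (macrophage) cells, and 8078 cells were in none. The macrophage gate shared 2265 cells with the Cd4 gate and 393 with the Foxp3 gate. Between 79.8% and 92.2% of its cells had a UMI of the T cell receptor gene Cd3e, against 79.1% to 93.5% in the Cd4 gate. It therefore goes against its name: most of its cells carried T cell mRNA together with complement mRNA, and doublets, cells carrying free macrophage RNA and macrophages cannot be told apart in it. In the Foxp3 gate 6 of 6 Treg markers were higher than in the Cd4 gate (median log2 fold change 2.63), with Foxp3 itself left aside. Pairs of libraries shared 2 to 39 barcodes.

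The targeted gene was read first. Levels are given in CPM, UMIs per 1000000 UMIs of the gate. Il1rl1 was at 74.2 and 54.8 CPM in the Foxp3 gate of the control libraries and at 128.0, 53.9 and 51.6 in that of the libraries labelled knockout. In the Cd4 gate it was at 8.95 and 8.96 in controls and at 57.6, 35.3 and 24.1 in the libraries labelled knockout. The deleted exons are not given in the sources used here, and 3′ tags can lie outside them, so these levels do not check the deletion. Group names below are those of the labels.

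The promoters of Fos, Jun, Nr4a1 and Nr4a3 are shown because these genes represent the AP-1 and the Nr4a groups whose members are seen together in single cells below. Each is the 250 bases before the annotated start, from RefSeq on GRCm38.p6, written 5′ to 3′ in the gene's direction. Capitals mark the cyclic-AMP response element half-site TGACG, which CREB and related factors bind. On the other strand this reads CGTCA. In Jun they mark the AP-1-like site TGACATCA.
Fos (chr12:85473640-85473889, forward strand): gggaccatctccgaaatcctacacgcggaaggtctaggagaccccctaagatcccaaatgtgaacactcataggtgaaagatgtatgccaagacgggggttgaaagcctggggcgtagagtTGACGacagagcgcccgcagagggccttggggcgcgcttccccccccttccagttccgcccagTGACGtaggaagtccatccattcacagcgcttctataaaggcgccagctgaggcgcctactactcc
Jun (chr4:95052223-95052472, reverse strand): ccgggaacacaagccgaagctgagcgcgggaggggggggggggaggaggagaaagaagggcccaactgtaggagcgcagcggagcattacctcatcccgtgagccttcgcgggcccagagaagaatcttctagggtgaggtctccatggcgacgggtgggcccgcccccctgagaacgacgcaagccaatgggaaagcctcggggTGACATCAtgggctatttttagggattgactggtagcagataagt
Nr4a1 (chr15:101266596-101266845, forward strand): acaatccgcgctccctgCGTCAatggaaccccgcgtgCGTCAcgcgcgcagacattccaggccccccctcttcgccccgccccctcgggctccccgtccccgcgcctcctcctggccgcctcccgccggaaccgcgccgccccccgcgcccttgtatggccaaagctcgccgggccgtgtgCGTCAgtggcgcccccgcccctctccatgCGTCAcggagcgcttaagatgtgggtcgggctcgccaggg
Nr4a3 (chr4:48045055-48045304, forward strand): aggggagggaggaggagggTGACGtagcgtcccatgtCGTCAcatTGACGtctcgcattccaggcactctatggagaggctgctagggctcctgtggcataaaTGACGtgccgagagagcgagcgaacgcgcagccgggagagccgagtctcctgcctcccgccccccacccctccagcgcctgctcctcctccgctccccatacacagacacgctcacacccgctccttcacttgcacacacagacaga
RefSeq promoter entries were read for 9 of the 10 members, and Egr1 was not among them. In windows of 300 bases (250 before and 50 after the start), TGACG on either strand occurred in 20.8% of 32851 promoters, TGACATCA in 3.62% and the full element TGACGTCA in 1.79%. Fos held TGACG 2 times, Nr4a1, Nr4a2 and Nr4a3 each held it 4 times, and Fosb and Junb held it 1 time. Egr2 held it 2 times at 3 of its 5 listed starts and not at the other 2. The Jun window held TGACATCA 1 time and no TGACG, and Jund held neither. Serum response elements, read as the CArG box (1.63% of promoters), were found at 4 of the 5 listed starts of Egr2. A match describes these letters only.

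**Figure D1:**
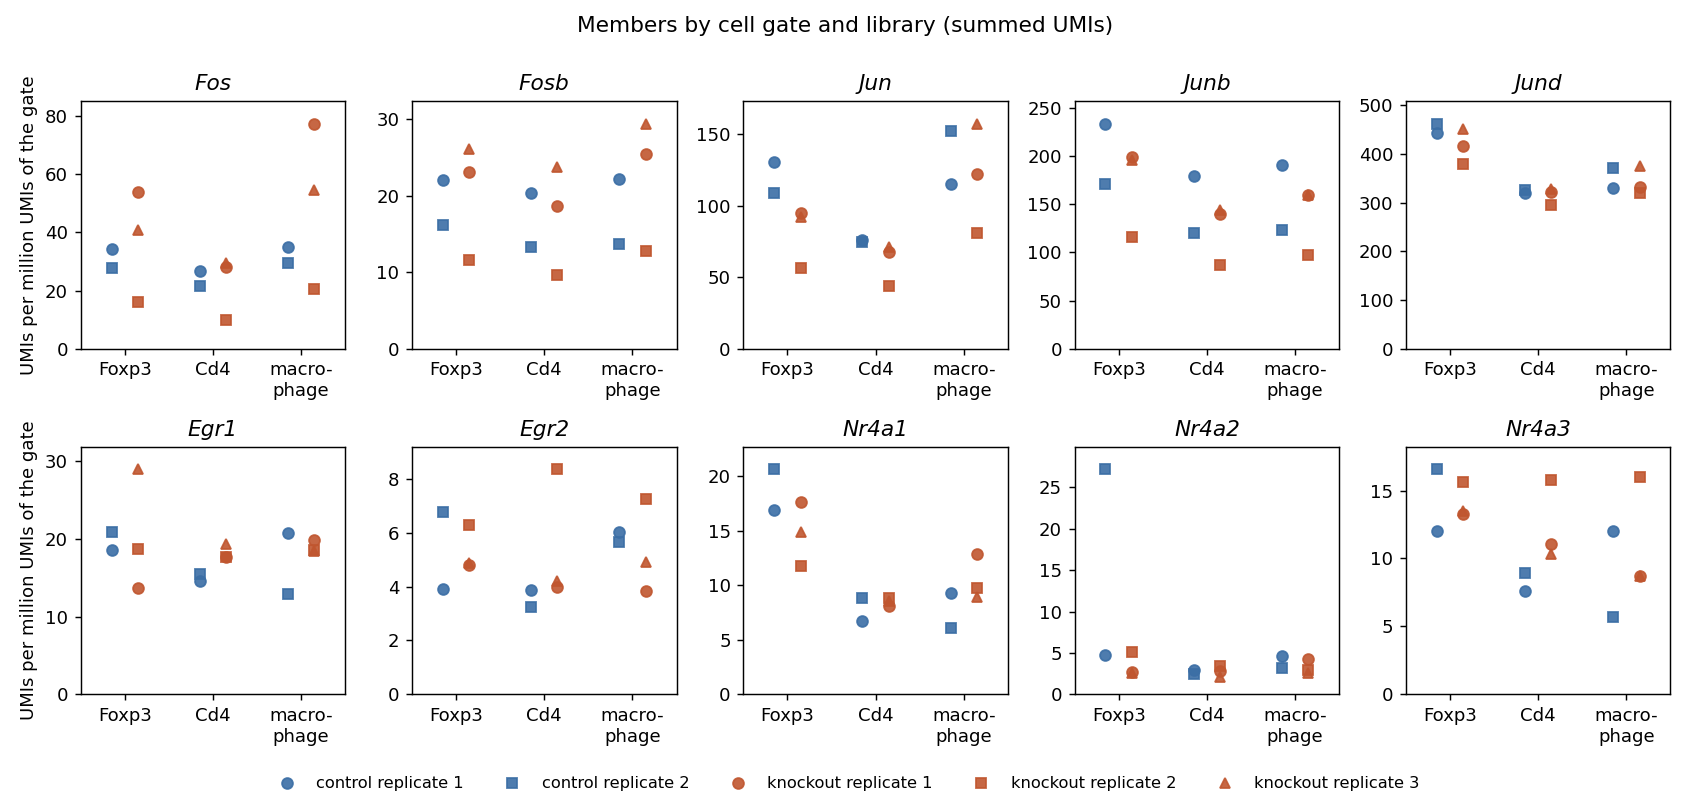
Level of each of the 10 members in CPM (axes start at 0), with 1 point per library, coloured by group, in the Foxp3, Cd4 and macrophage gates. Knockout replicate 2 is the lowest library for Fos, Fosb, Jun and Junb in all 3 gates.

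The first comparison asked whether the members differ between libraries labelled knockout and control in Foxp3-positive cells, where Cre is active. None of the 10 members passed the test, edgeR's quasi-likelihood test on UMIs summed per library and gate with Benjamini-Hochberg adjustment over 11519 genes (threshold 0.05). The same held for every gene tested (0%). At an unadjusted p under 0.05, 752 genes (6.53%) and 2 members were found, and DESeq2 called 51 genes (0.443%) and 0 members. Since 3′ UMIs are not scaled by length, CPM levels are compared within a gene. In sums over a gate, fewer cells with a gene and less of its mRNA per cell cannot be told apart.

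Jun, the DNA-binding partner of Fos in AP-1, was at 130.4 and 108.7 CPM in the Foxp3 gate of controls and at 94.9, 56.8 and 92.3 in knockouts. All 3 knockout libraries were below both controls, and Jun was the 1 member of 10 whose groups did not overlap (22.2% of all genes tested, 14.9% higher and 7.27% lower). The log2 fold change of Jun was -0.62 (SE 0.20, adjusted p = 0.632, edgeR). Jun passed when genes with low counts were not filtered out (adjusted p = 7.42e-06, edgeR), a setting that also called many genes outside the members. Fos was at 34.4 and 27.6 in controls and at 53.8, 16.1 and 40.7 in knockouts, so the knockouts lay on both sides of the controls. Its log2 fold change was 0.16 (SE 0.41). Fosb, a Fos paralogue, was at 22 and 16.2 in controls and at 23.1, 11.5 and 26.1 in knockouts. Junb, which pairs with Batf and Fos proteins in T cells, was at 233.8 and 170.7 in controls and at 199.1, 116.1 and 196.3 in knockouts. For both genes knockout replicate 2 was lowest and the groups overlapped. Jund, the Jun paralogue present in resting cells, was at 443.7 and 462.5 in controls and at 415.8, 379.9 and 451.7 in knockouts (log2 fold change -0.16, SE 0.11).

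Among the receptor-response genes in the Foxp3 gate, Nr4a2 had the lowest fitted fold change, and this rested on 1 cell. Nr4a2 was at 4.75 and 27.2 CPM in controls and at 2.69, 5.12 and 2.58 in knockouts. Of 133 Nr4a2 UMIs in control replicate 2, 106 (79.7%) came from a single cell, and without that cell the level was 5.54. The log2 fold change was -2.06 (SE 0.69, adjusted p = 0.643, edgeR) with all libraries and -0.42 without control replicate 2. With no filter on low counts, the setting that called many other genes too, Nr4a2 passed with that cell included (adjusted p = 1.62e-09, edgeR). Nr4a1, the family member most used as a reporter of receptor signalling, was at 16.9 and 20.7 in controls and at 17.7, 11.8 and 14.9 in knockouts. Nr4a3 was at 12 and 16.6 in controls and at 13.3, 15.6 and 13.5 in knockouts, between the controls in every library. Its single highest cell held 28.0% and 44.4% of its UMIs in controls and 23.2%, 8.96% and 17.0% in knockouts. Without that cell in each library Nr4a3 was at 8.68 and 9.24 in controls and at 10.2, 14.2 and 11.2 in knockouts. The order of the groups thus depended on single cells. Egr1 was at 18.6 and 20.9 in controls and at 13.6, 18.6 and 29.0 in knockouts. Egr2 was at 3.92 and 6.75 in controls and at 4.80, 6.28 and 4.87 in knockouts. In control replicate 2, 19 of 33 Egr2 UMIs came from 1 cell. Without the highest cell of each library Egr2 was at 3.38 and 2.87 in controls and at 3.27, 5.36 and 4.03 in knockouts. Neither Egr gene separated the groups, with log2 fold changes of -0.01 (Egr1, SE 0.28) and 0.05 (Egr2, SE 0.33).

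In the Foxp3-negative Cd4 gate, again 0 of 10 members and 0 of 13959 genes (0%) passed edgeR's test, 685 genes (4.91%) and 1 member had an unadjusted p under 0.05, and DESeq2 called 57 genes (0.408%) and 0 members. The member below that unadjusted level was Nr4a3, at 7.62 and 8.95 CPM in controls and at 11.1, 15.8 and 10.3 in knockouts. Every knockout library was above both controls, with a log2 fold change of 0.55 (SE 0.22, adjusted p = 0.994, edgeR). Egr2 was at 3.88 and 3.23 in controls and at 3.97, 8.36 and 4.21 in knockouts, and most of its difference lay in knockout replicate 2. Egr1 was at 14.5 and 15.4 in controls and at 17.6, 17.6 and 19.3 in knockouts (log2 fold change 0.24, SE 0.12). These 3 members lay higher without overlap, as did 12.4% of all genes tested (18.8% in either direction). Jun lay lower without overlap, as did 6.38% of all genes, at 75.8 and 74.7 in controls and at 67.9, 43.7 and 71.3 in knockouts (log2 fold change -0.35, SE 0.20).

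The remaining members of the Cd4 gate overlapped between groups. Fos was at 26.6 and 21.6 CPM in controls and at 28.2, 9.99 and 29.5 in knockouts. Fosb was at 20.4 and 13.3 in controls and at 18.7, 9.61 and 23.8 in knockouts. Junb was at 179.5 and 120.3 in controls and at 139.6, 87.0 and 144.0 in knockouts. In these 3 genes knockout replicate 2 was the lowest library, while in Egr2 and Nr4a3 it was the highest. Jund ranged from 295.7 to 328.8, Nr4a1 from 6.77 to 8.84 and Nr4a2 from 2.13 to 3.46 over the 5 libraries.

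Cells of the macrophage gate gave 0 of 10 members and 0 of 12005 genes (0%) between the groups by edgeR, 0 members and 433 genes (3.61%) at an unadjusted p under 0.05, and 21 genes (0.175%) with 0 members by DESeq2. Fos was at 34.9 and 29.5 CPM in controls and at 77.3, 20.6 and 54.4 in knockouts. Its log2 fold change was 0.59 (SE 0.47). The groups overlapped in all 10 members, while 17.8% of the genes tested did not overlap. The other 9 members had log2 fold changes between -0.33 (Nr4a2, SE 0.34) and 0.38 (Nr4a1, SE 0.27).

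Whether the knockout effect itself differed between gates was tested as an interaction of gate and group. Between the Foxp3 and Cd4 gates 7 of 13949 genes (0.0502%) and 0 members passed edgeR's test, and DESeq2 called 21 genes (0.151%) and 0 members. The lowest p among members was that of Nr4a3 (difference in log2 fold change -0.59, adjusted p = 0.488, edgeR), and 5 members and 919 genes (6.59%) had an unadjusted p under 0.05. Between the macrophage and Cd4 gates 2 of 13698 genes (0.0146%) and 0 members passed, and 3 members and 908 genes (6.63%) had an unadjusted p under 0.05. Fos had the lowest p there (difference 0.74, adjusted p = 0.305, edgeR), and DESeq2 called 4 genes (0.0292%) and 0 members.

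Heat shock genes, macrophage markers and Treg markers were read in the same libraries. The heat shock list summed to 3621 to 6340 CPM in the Foxp3 gate of controls and to 3227 to 3748 in knockouts, so that the groups overlapped, with 13 of 13 measured genes lower (5777 of all 11519 genes were) and none passing the test. The macrophage markers summed to 529 to 763 in controls and to 947 to 1349 in knockouts in the same gate, with 10 of 10 higher (5742 of all 11519 genes were) and none passing. In the Cd4 gate the Treg markers, Il1rl1 among them, summed to 334 to 343 in controls and to 465 to 481 in knockouts. There 6 of 6 were higher (7031 of all 13959 genes were) and none passed. Treg cells in which no Foxp3 UMI was captured cannot be told apart from other cells of that gate. The share of Foxp3-gate cells with 5 or more C1q UMIs was 7.43% and 11.8% in controls and 14.0%, 16.8% and 18.3% in knockouts. The part of these in the members' values was not tested. Without such C1q-high cells the log2 fold change of Fos in the Foxp3 gate turned to -0.16.

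**Figure D2:**
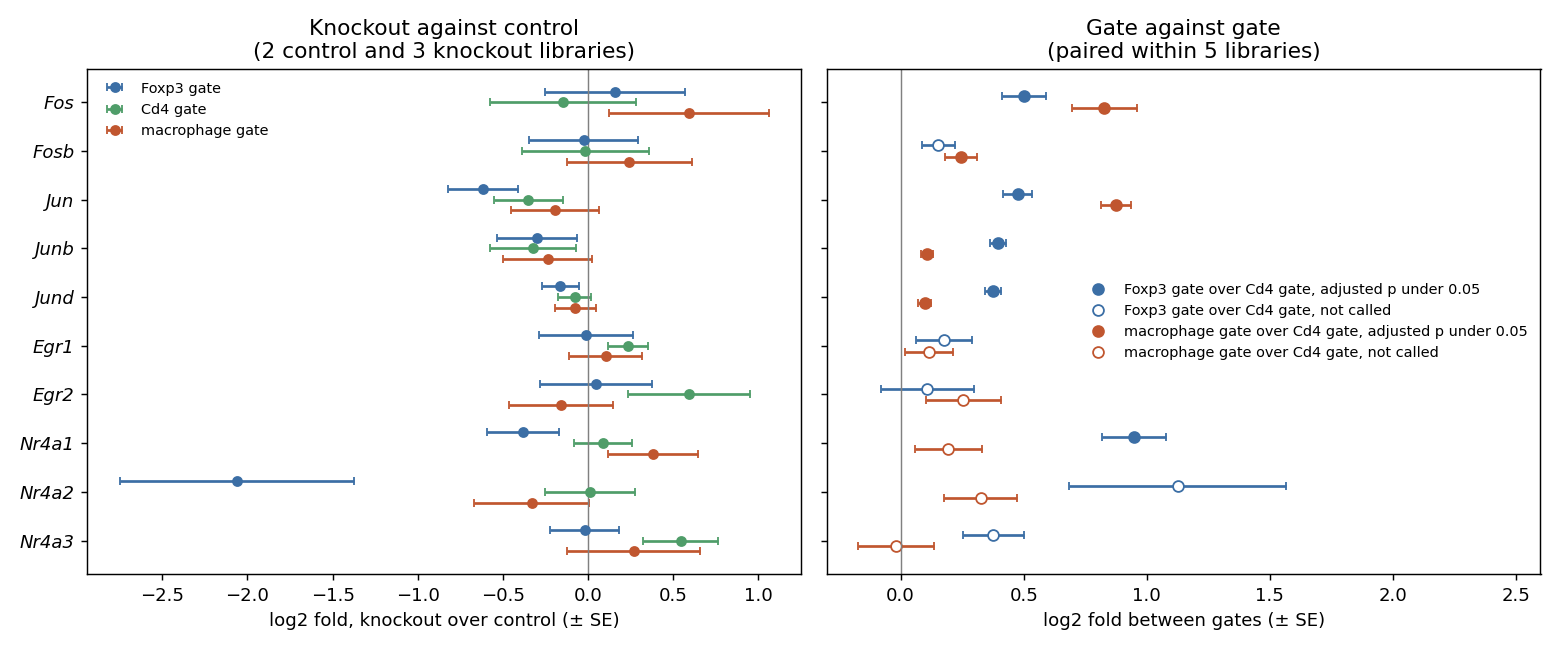
Log2 fold change of each member with its standard error (bars), knockout against control in each of the 3 gates and Foxp3 or macrophage gate against Cd4 gate within libraries. Knockout contrasts hold no called member, while 5 members are called in each gate contrast.

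Set against Foxp3-negative Cd4 cells of the same library, Foxp3-positive cells had more Fos, Jun, Junb, Jund and Nr4a1 mRNA. These 5 of 10 members were called higher and none lower by edgeR with the library as a term, beside 1549 of 12994 genes called higher (11.9%), 9.53% called lower and 21.4% in either direction. DESeq2 also called 5 members, and 17.3% of all genes. All 10 members had a fold change above 0, with a median log2 of 0.39 against -0.02 for all genes tested. Fos, Fosb, Jun, Junb, Jund and Nr4a1 were higher in 5 of 5 libraries, as were 20.3% of all genes.

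Nr4a1 had a mean of 16.4 ± 3.31 CPM in the Foxp3 gate and 8.21 ± 0.857 in the Cd4 gate (SD, n = 5 libraries). Its lowest Foxp3-gate library, at 11.8, lay above its highest Cd4-gate library, at 8.84. The log2 fold change was 0.95 (SE 0.13, adjusted p = 6.41e-04, edgeR). Fos was at 34.5 ± 14.1 against 23.2 ± 7.96, with a log2 fold change of 0.50 (SE 0.09, adjusted p = 0.00253). Its ranges over libraries overlapped, but each library's own Foxp3-gate value was the higher one. Jun was at 96.6 ± 26.9 against 66.7 ± 13.2 (log2 fold change 0.48, SE 0.06, adjusted p = 3.77e-04). Junb was at 183 ± 43.7 against 134 ± 33.9 (0.39, SE 0.03, adjusted p = 2.43e-05). Jund was at 431 ± 33.3 against 319 ± 13.4 (0.38, SE 0.03, adjusted p = 4.11e-05), and its 2 ranges did not overlap.

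The remaining 5 members did not pass. Nr4a3 had a log2 fold change of 0.38 (SE 0.12, adjusted p = 0.0537, edgeR), Fosb one of 0.15 (adjusted p = 0.132), Egr1 one of 0.18 (adjusted p = 0.306) and Egr2 one of 0.11 (adjusted p = 0.742). Nr4a2, with 1.13 (SE 0.44, adjusted p = 0.0998), again carried the single cell of control replicate 2. Foxp3-gate cells were deeper than Cd4-gate cells in every library (medians of 5429 to 16664 against 4562 to 14355 UMIs per cell). After each cell was thinned to 2000 UMIs and the gates were drawn again, Jun (0.57), Junb (0.37) and Jund (0.42) were called. Fos (0.40, adjusted p = 0.295) and Nr4a1 (0.85, adjusted p = 0.0659) were not, on 1364 Foxp3-gate and 16545 Cd4-gate cells.

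Macrophage markers were higher in the Foxp3 gate as well, 10 of 10 with 5 called (median log2 fold change 0.39). Without C1q-high cells in either T cell gate the log2 fold changes were 1.21 for Nr4a1 and 0.53 for Fos.

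Other genes of these pathways were counted in the same contrast from lists set beside the members. Of 11 AP-1-related genes of the basic leucine zipper family, 5 rose in the Foxp3 gate: Batf, Atf3, Mafg, Batf3 and Fosl2. Batf, the partner of Junb and Irf4 in T cells, went from 75.2 to 110 CPM (log2 fold change 0.49, adjusted p = 2.9e-04, edgeR). Bach2, a repressor that competes at AP-1 sites, fell by 0.30 on the log2 scale (324 to 272 CPM). Of 3 Egr partners only Nab2, a corepressor of Egr proteins, rose (0.32), while Egr3 was at 6.06 in the Cd4 gate and 5.70 in the Foxp3 gate. Crem (0.61) and Elk3 rose among 6 serum response and CREB-type factors.

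Feedback genes of the MAPK pathway were split, with 3 higher and 3 lower of 9. Dusp1, a nuclear phosphatase that shuts off p38 and JNK, rose by 0.92 on the log2 scale (12.2 to 24.1 CPM), and Dusp4 and Dusp5 rose too. Dusp2, Dusp6 and Dusp10 fell, Dusp2 by 0.42. Of 22 other immediate early genes 10 rose and 3 fell. Zfp36l1, which encodes an mRNA-decay protein, rose by 0.66 (161 to 265 CPM), and Gadd45b rose by 0.91. Ier2 (0.01) and Klf6 (-0.01) did not pass. Of 10 NFAT and Nr4a-linked genes Tox2, Tox, Il2ra and Tnfrsf9 rose and Nfatc1 and Nfatc3 fell. Il2ra is also a Treg marker, and CD25, which it encodes, was in the sorting panel. None of 13 heat shock genes rose and 1, Dnajb1, fell.

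In the macrophage gate, compared with the Cd4 gate, Fos (log2 fold change 0.83, SE 0.13, adjusted p = 5.78e-04, edgeR) and Jun (0.87, SE 0.06, adjusted p = 1.12e-06) were the members with the highest fold changes. Jun was at 126 ± 30.8 CPM in the macrophage gate and 66.7 ± 13.2 in the Cd4 gate (SD, n = 5 libraries). Fosb (0.25), Junb (0.11) and Jund (0.10) passed as well, so that 5 of 10 members were called higher, beside 22.2% of 12885 genes called higher, 19.7% called lower and 41.9% in either direction. These 5 were higher in 5 of 5 libraries, as were 25% of all genes, and DESeq2 called 2 members, Fos and Jun, and 29.2% of all genes. The Egr and Nr4a genes had fold changes between -0.02 and 0.32 and did not pass. Both sums contain the 2265 shared cells.

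When no cell was allowed in both sums, a choice made after the data were seen, Jun stayed higher and the other AP-1 members did not pass. The 395 macrophage-gate cells without a Cd3e UMI, 48 to 152 per library, were set against 24713 Cd4-gate cells with under 5 C1q UMIs. Jun was at 77.6 to 211 CPM in these macrophage-gate cells and at 34.1 to 73.4 in the Cd4 cells (log2 fold change 1.52, adjusted p = 2.1e-07, edgeR). It was the 1 member of 10 called higher, beside 12.9% of 11664 genes called higher and 23.1% in either direction. Nr4a3 gave 5 UMIs in 2087419 UMIs of the macrophage-gate cells, 0 to 4.95 CPM, against 7.43 to 15.6 in the Cd4 cells. Nr4a2 gave 0 UMIs. Taking 3 counts over the 5 pooled libraries as the bound allows up to 1.44 CPM, 2.02-fold below the pooled 2.90 of the Cd4 cells. That bound covers counting error only and not the spread between libraries. With so few UMIs both genes could enter the test only through the Cd4 sums, so their levels are given as a description with no test. Fos (0.56, adjusted p = 0.178, edgeR), Fosb (-0.49), Junb (-0.31) and Jund (-0.34) did not pass, nor did Egr1 (-0.32).

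How many members a cell expresses was read after thinning each cell to 2000 UMIs. The share of Foxp3-gate cells with UMIs of 3 or more of the 10 members was 9.38% and 7.33% in controls and 6.64%, 3.50% and 11.3% in knockouts. The means were 8.35% ± 1.45 (SD, n = 2) and 7.15% ± 3.92 (SD, n = 3), with an exact two-sided permutation p of 0.8. In the Cd4 gate the share was 5.05% and 4.18% in controls and 4.12%, 1.96% and 4.97% in knockouts (exact permutation p = 0.4). In the macrophage gate it was 6.60% and 6.62% against 8.28%, 3.62% and 9.45% (exact permutation p = 1.0). Over the 3 gates every adjusted p was 1.0, and 2 against 3 libraries cannot give a p below 0.2. Knockout replicate 2 was lowest in all 3 gates. In the Cd4 gate its share of 1.96% and the 4.12% of the next library had exact 95% binomial intervals of 1.64% to 2.33% and 3.44% to 4.88%, which cover counting error only. No cell type known to lack these genes was defined, so the share due to free RNA was not estimated.

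Within single cells of the Cd4 gate the members fell into 2 groups that were seen together more often than their own frequencies give. For each pair of members, cells with both were counted in 25469 thinned cells and set against the number expected from their separate frequencies in each library, summed over 5 libraries, as a description with no test. The 10 pairs among Egr1, Egr2, Nr4a1, Nr4a2 and Nr4a3 were seen in 266 cells against 29.8 expected, with ratios of 3.44 to 17.5 and a median of 12.2. In 8 of these 10 pairs the ratio was above 1 in all 5 libraries. The 3 pairs among Fos, Fosb and Jun were seen in 400 cells against 164 expected, with ratios of 2.10 to 2.73, above 1 in all 5 libraries for 3 of 3 pairs. The 15 pairs between these 2 groups were seen in 277 cells against 204 expected (ratios 0.69 to 4.04, median 1.32), and 3 of 15 were above 1 in all 5 libraries. Pairs that include Junb or Jund had ratios of 1.12 to 1.72.

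The ratios of single pairs overlapped between these kinds. Nr4a1 and Nr4a2 met in 19 cells against 1.09 expected, a ratio of 17.5. Egr2 and Nr4a1 met in 27 against 1.64, and Egr1 and Egr2 in 41 against 3.43. Fos and Jun met in 186 cells against 69.7, a ratio of 2.67 that ranged from 2.34 to 3.32 over libraries, and Fosb and Jun in 145 against 69. Across the groups, Fos and Nr4a1 met in 33 cells against 8.16, a ratio of 4.04 that is above those of all 3 pairs among Fos, Fosb and Jun, and Fos and Egr1 in 34 against 16.1, both above 1 in 5 of 5 libraries. Jun and Nr4a3 met in 21 cells against 29.7. Members of a pair share the cell, its depth before thinning and its library. In the Foxp3 gate the Egr and Nr4a pairs were seen in 65 cells against 5.84 expected. The Fos, Fosb and Jun pairs were seen in 65 against 35.3. Of these pairs, 3 of 10 and 1 of 3 were above 1 in all 5 libraries. The pairs between the groups had a median ratio of 1.88, inside the 1.45 to 2.19 of the Fos, Fosb and Jun pairs. In the macrophage gate the counts were 35 against 4.83 and 84 against 57.2. There 1 of 10 and 1 of 3 pairs were above 1 in all 5 libraries. The median between the groups was 1.33, inside the 1.12 to 1.66 of the Fos, Fosb and Jun pairs. The Fos, Fosb and Jun pairs were thus not set apart from those between the groups in either gate.

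**Figure D3:**
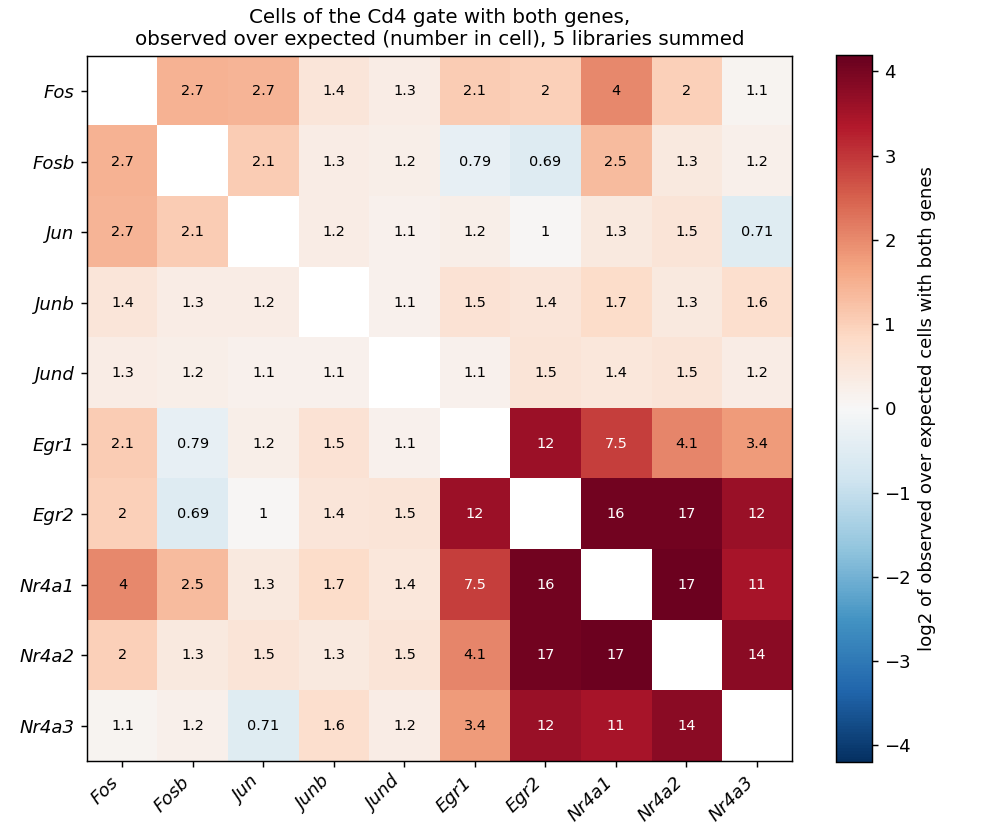
Ratio of observed to expected cells for each pair of the 10 members in the Cd4 gate after thinning to 2000 UMIs, summed over 5 libraries. Pairs among Egr1, Egr2 and the Nr4a genes reach ratios up to 17.5, and pairs among Fos, Fosb and Jun lie between 2.10 and 2.73.

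From these pairs 2 sets of Cd4-gate cells were drawn after the values were seen, so all that follows is description. The Fos/Jun set holds the 366 cells with UMIs of 2 or more of Fos, Fosb and Jun, and the Egr/Nr4a set the 150 cells with 2 or more of the 5 Egr and Nr4a members. The sets shared 1 cell, against 2.00 if membership were independent, numbers too small to tell whether the sets are separate. The Fos/Jun set made up 1.82% and 1.55% of Cd4-gate cells in controls and 1.80%, 0.483% and 1.98% in knockouts. Knockout replicate 2 stood below the other 4 libraries, with an exact 95% binomial interval of 0.331% to 0.682%, and the lowest interval bound among the others was 1.23%. The Egr/Nr4a set made up 0.395% and 0.601% in controls and 0.588%, 0.771% and 0.640% in knockouts. Here knockout replicate 2 was the highest library, and its interval of 0.574% to 1.01% overlapped those of the others except that of control replicate 1 (0.264% to 0.566%).

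**Figure D4:**
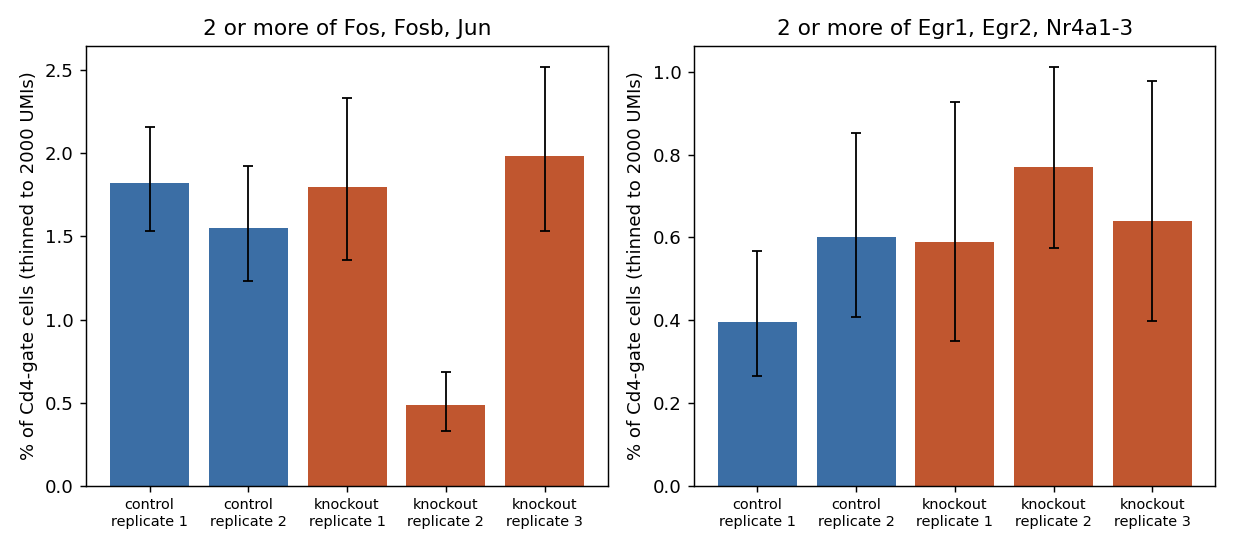
Percent of Cd4-gate cells, thinned to 2000 UMIs, in the Fos/Jun set and in the Egr/Nr4a set, with 1 bar per library and exact 95% binomial intervals. Knockout replicate 2 is lowest for the Fos/Jun set (0.483%) and highest for the Egr/Nr4a set (0.771%).

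The 2 sets were compared with the 21131 Cd4-gate cells that had none of these 8 members, over listed genes with at least 20 UMIs in the set. A gene that is low outside a set can pass this filter only by being high in it. Counts of measured genes therefore lean toward higher ones. Values are medians over 5 libraries in CPM. Of all genes with that many UMIs, 7.16% of 5702 were higher and 9.47% lower in 5 of 5 libraries in the Fos/Jun set, and 12.9% of 3135 were higher and 8.39% lower in the Egr/Nr4a set. In the Fos/Jun set myeloid mRNAs were higher in 5 of 5 libraries: the lysozyme gene Lyz2 was at 885 (range 709 to 1469) against 87.6 (72.0 to 96.9), and the monocyte gene Vcan at 72.7 (18.8 to 156) against 2.71. Apoe, made by macrophages, was at 575 against 120. Macrophage markers were higher in all 5 libraries for 6 of 7 measured genes, monocyte markers for 3 of 4, and T cell genes were lower for 8 of 8. Trac, the T cell receptor alpha constant gene, was at 469 (444 to 600) against 743 (685 to 813). The immediate early gene Zfp36 was at 78.1 against 20.01, Klf2, a quiescence factor of naive T cells, at 400 against 157, and Bach2 at 646 against 298, each higher in 5 of 5 libraries.

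Cells with 5 or more C1q UMIs made up 5.22% to 38.5% of the Fos/Jun set over the 5 libraries, against 5.94% to 8.72% of cells with none of the 8 members. With those cells left out, 300 cells remained in the set. Lyz2 was then at 727 (422 to 1818) against 35.7, Vcan at 66.7 against 2.71 and Apoe at 83.3 against 19.8, each still higher in 5 of 5 libraries, and Trac was at 500 against 758. Cells with a Cd3e UMI made up 77.5% to 95.5% of the set at full depth. In every library the set's median UMIs per cell before thinning was above that of cells with none of the 8 members. These medians were 5170 to 14511 against 4810 to 14374.5, and the part of depth was not tested. The part of myeloid mRNA, doublets included, in the joint presence of Fos, Fosb and Jun was not tested.

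In the Egr/Nr4a set, Egr partners, immediate early genes and activation receptor genes were among those higher in every library, and so were heat shock genes. Egr3, another Egr factor of activated T cells, was at 310 (222 to 667) CPM against 1.21 (0.942 to 2.75). Nab2 was at 147 (47.6 to 250) against 10.6, and 3 of 3 measured Egr partners were higher in 5 of 5 libraries. The count was 8 of 14 for other immediate early genes, against 7 of 17 in the Fos/Jun set. For NFAT and Nr4a-linked genes it was 5 of 7 (0 of 4 in the Fos/Jun set). For heat shock genes it was 5 of 7 (1 of 11), among them Hspd1 at 333 against 131. For AP-1-related genes it was 1 of 2 (2 of 4), and for serum response and CREB-type factors 0 of 4 (0 of 4). In the Egr/Nr4a set 1 other immediate early gene and 1 NFAT or Nr4a-linked gene were lower in 5 of 5. Myc, which drives growth of activated T cells, was at 88.2 against 9.42. The activation receptor genes Tnfrsf9 (216 against 22.6), Il2ra (194 against 21.2), Cd69 (524 against 120) and Pdcd1 (161 against 41.5) were also higher in 5 of 5. So were Dusp2 (310 against 101), Zfp36l1 (500 against 143), Tox (1190 against 519) and Batf (167 against 76.9). Among the members that did not choose the set, Junb was at 262 against 128 and Jund at 565 against 295.

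Neither of the 2 measured macrophage markers was higher or lower in all 5 libraries in the Egr/Nr4a set, and 2 of 8 T cell genes, Trac among them (984 against 743), were higher in all 5. Between 90.3% and 100% of these cells had a Cd3e UMI, and 5.88% to 14.3% had 5 or more C1q UMIs. Before thinning they were deeper than the cells with none of the 8 members in every library (medians of 6279 to 18917 against 4810 to 14374.5 UMIs per cell), and the part of depth in these levels was not tested. Without C1q-high cells 136 cells remained, in which Egr3, Nab2, Myc, Tnfrsf9, Il2ra, Pdcd1 and Cd69 were still higher in 5 of 5 libraries. Klf2 was then at 35.7 against 158, lower in 5 of 5, whereas in the Fos/Jun set without such cells it was at 421.

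**Figure D5:**
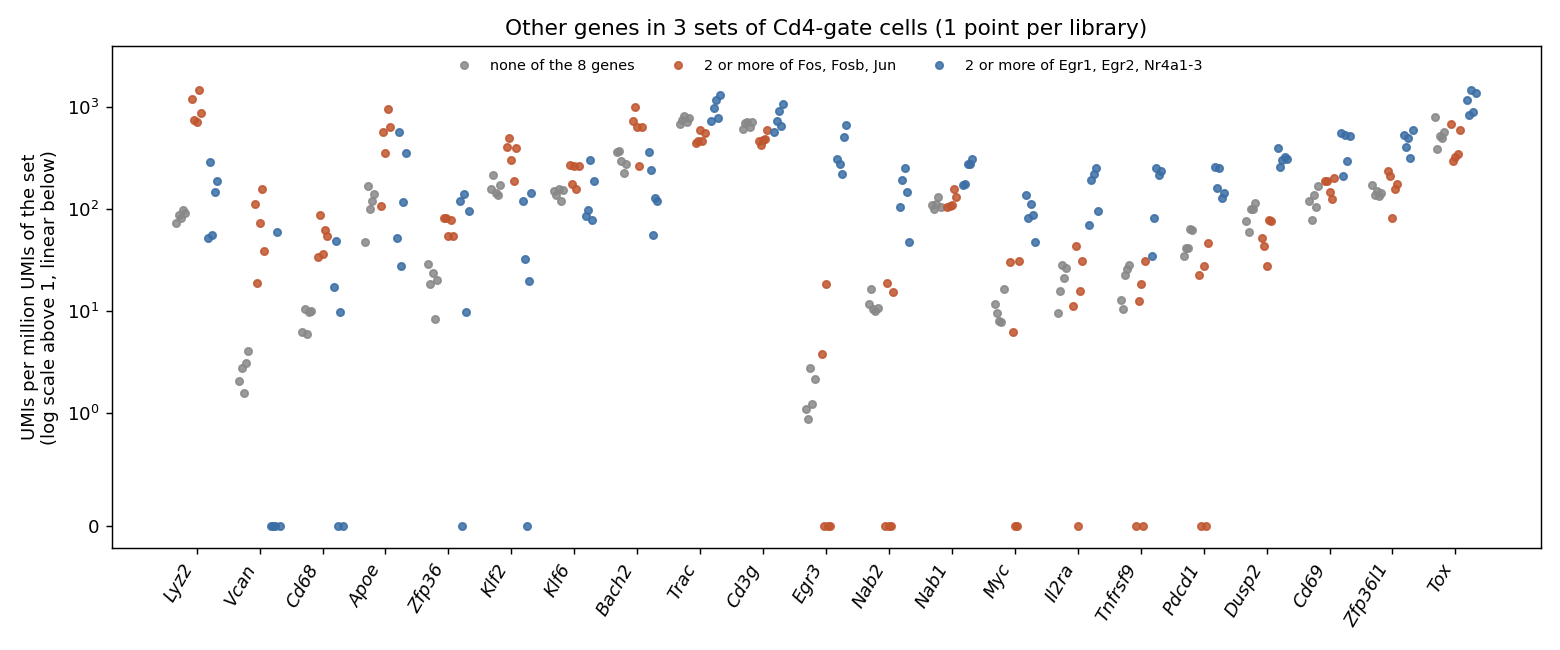
Level in CPM (log axis above 1 and linear below, 1 point per library) of selected genes in the Fos/Jun set, the Egr/Nr4a set and Cd4-gate cells with none of the 8 members. Lyz2 is higher in the Fos/Jun set and Egr3 and Nab2 in the Egr/Nr4a set in 5 of 5 libraries, and Trac is lower in the Fos/Jun set and higher in the Egr/Nr4a set.

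The 8078 cells in no gate, 739 to 2471 per library, held all 10 members too. Fos ranged from 10.7 to 61.8 CPM over the 5 libraries in them (median 23.7), with the highest value in control replicate 1 and the lowest in knockout replicate 2. Nr4a3 ranged from 7.99 to 32.9 (median 15.5), highest in knockout replicate 1. Jun ranged from 49.5 to 132, Junb from 67.2 to 150, Fosb from 11.4 to 30.1 and Jund from 231 to 320. Egr1 ranged from 12.1 to 30.6, Egr2 from 1.30 to 5.39, Nr4a1 from 5.62 to 17.1 and Nr4a2 from 1.35 to 6.55.

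Over the 15 sums of 5 libraries and 3 gates, the genes outside the members whose log2 level was most like the mean of the 10 standardized members were Zfp36l1 (Pearson r 0.91), Plcl1 (0.88), Dynlt3 (0.85), Slc39a10 (0.84), Itm2c (0.83) and Tpgs1 (0.83), among 6820 genes with a mean of at least 20 CPM. The 15 points share libraries and, in part, cells, so these values describe the ranking only.

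In the mouse GRCm38 (mm10) annotation GENCODE M21, Fos lies at chr12:85473890-85477273 on the forward strand, Fosb at chr7:19302696-19310051 on the reverse strand, Jun at chr4:95049034-95052222 (reverse) and Junb at chr8:84974484-84978718 (reverse). Jund lies at chr8:70698949-70700616 (forward) and Egr2 at chr10:67535475-67542188 (forward). Nr4a1 lies at chr15:101254269-101274795 (forward), Nr4a2 at chr2:57106830-57124003 (reverse) and Nr4a3 at chr4:48045153-48086447 (forward).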

How the data were processed

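Single-cell mRNA of 5 kidney CD4 T cell libraries was counted with Cell Ranger 8.0 against mm10 and handled in Seurat 5.1.0, per the submitters' processing notes. The deposited filtered matrices hold raw UMI counts, per the file headers written by Cell Ranger 8.0.0. Here cells with at least 500 genes and under 10% mitochondrial UMIs were kept, no doublet caller was run, and UMIs were summed per library and gate. Sums were tested with edgeR 4.0.16 (TMM, filterByExpr, quasi-likelihood F test, Benjamini-Hochberg over all genes tested, 0.05) in R 4.3.3. DESeq2 1.42.0, other filters, gates and thinning were alternatives. Gate contrasts had the library as a term. The code was tested on simulated data. The sums held 3489360 to 124179460 UMIs. Fold changes are log2. Shares were compared by exact permutation over libraries.

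Named genes were the 10 members, a fixed set from the pathway lists, the 2 genes of each list with the smallest p, and the 6 most alike genes. Of the other genes named, those called in the pathway lists complete a count, and the genes of the 2 cell sets, from the same lists and the cell type markers, were chosen after their values were seen. Members and lists were chosen with earlier results of these data known.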

Additional observations from a re-analysis of the deposited data

Results flagged for a closer look

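Il1rl1, the targeted gene, had a knockout effect that differed between gates. The log2 fold change of libraries labelled knockout against control differed by -1.96 (SE 0.18) in the Foxp3 gate relative to the Cd4 gate (interaction of gate and group, adjusted p = 0.0027, edgeR). It was 0.22 in the Foxp3 gate and 2.09 in the Cd4 gate, where all 3 libraries labelled knockout were above both controls. The direction was not particular to Il1rl1. All 6 Treg markers, Il1rl1 among them, had a negative difference (7360 of all 13949 genes did), with a median of -0.66. All 6 had an unadjusted p under 0.05 by edgeR, as did 6.59% of all genes, and only Il1rl1 passed after adjustment. None of the 10 immediate early genes had such a difference past the threshold.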

How the results depend on the processing

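Of 790 alternative values for single members, 677 kept direction and side of the threshold, 84 reversed, 13 came to pass and 16 ceased to pass; the cause was not tested except where the alternative removes samples, cells or genes. Depth limits the members with few UMIs (Egr2, Nr4a2) and the 395 Cd3e-free macrophage-gate cells.

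Genes called between knockout and control numbered 51 (DESeq2), 452 with 2 members (no filter on low counts; Jun adjusted p = 7.42e-06, Nr4a2 1.62e-09) and 0 to 33 (each replicate left out) in the Foxp3 gate. In the Cd4 gate they numbered 57 (DESeq2), 191 (no filter) and 1 (replicate block), and in the macrophage gate 21 (DESeq2), 145 (no filter) and 0 to 2 (each replicate left out). In the contrast of Foxp3 with Cd4 gate, thinning gave 1433 genes and 3 members, and leaving out each replicate 1936 to 2775 genes and 5 to 6 members. In that of macrophage with Cd4 gate, called members numbered 2 with 3766 genes (DESeq2) and 3 (no filter). Leaving out each replicate gave 2 to 7 members and 4552 to 5439 genes, with 2 members without knockout replicate 3. Thinning gave 2 members and 2706 genes. With no cell in both gates 3 members and 2699 genes were called, among them Nr4a2 and Nr4a3, which entered only through the Cd4 sums. Without Cd3e-positive cells 2496 genes were called. For the Foxp3 interaction the counts were 21 genes (DESeq2), 297 with 1 member, Nr4a2 at -1.66 (no filter), and 2 to 39 genes with 0 to 1 member (each replicate left out; Nr4a2 at -3.13, adjusted p = 0.00999, without control replicate 1). For the macrophage interaction they were 4 (DESeq2), 208 with 1 member, Fos at 0.74 (no filter), 0 to 85 (each replicate left out) and 43 (no cell in both gates).

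Reversed log2 fold changes between knockout and control in the Foxp3 gate were Fosb 0.010 (DESeq2), Egr1 0.0032 (stricter cell filter), Egr2 -0.12 (libraries thinned to one mean) and -0.17 (at least 2 Foxp3 UMIs). Without C1q-high cells they were Fos -0.16, Egr1 0.16 and Nr4a3 0.10, and without the 5% of cells with most UMIs Fos -0.33, Egr1 0.27, Nr4a1 0.13 and Nr4a3 0.19. In the Cd4 gate they were Fosb 0.0016 (DESeq2) and 0.031 (libraries thinned to one mean), Nr4a2 -0.0011 (stricter filter) and -0.025 (without the top 5%) and Nr4a1 -0.040 (without C1q-high cells). In the macrophage gate Fos was -0.86 without Cd3e-positive cells. Egr1 was -0.38 in the Foxp3 against the Cd4 gate after thinning.

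In the macrophage against the Cd4 gate, Fosb was -0.56, Junb -0.35, Jund -0.37, Egr1 -0.31, Egr2 -2.12, Nr4a1 -0.72 and Nr4a2 -9.11 without Cd3e-positive cells. With no cell in both gates they were -0.49, -0.31, -0.34, -0.32, -2.00, -0.69 and -8.84. The Nr4a2 values come from 0 UMIs of the macrophage-gate cells and are no bound. Those of Egr2 and Nr4a1 come from 2 and 10 UMIs. The Foxp3 interaction of Fosb was -0.057 without C1q-high cells. The macrophage interaction of Jund was -0.0068 (DESeq2) and -0.0076 (DESeq2 size factors in edgeR). With no cell in both gates it was -0.47 for Fos, -0.13 for Fosb, -0.10 for Jun, -0.53 for Junb, -0.056 for Jund, 0.58 for Egr1 and -1.02 for Nr4a1. The macrophage-gate difference in the share of cells with 3 or more members was -0.251 percentage points at 1000 UMIs per cell.

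Leaving out each replicate moved these across 0 between knockout and control. In the Foxp3 gate Fos ranged from -0.26 to 0.55, Fosb from -0.23 to 0.28, Egr1 from -0.31 to 0.20, Egr2 from -0.36 to 0.42 and Nr4a3 from -0.26 to 0.20. In the Cd4 gate Fos ranged from -0.38 to 0.22, Fosb from -0.30 to 0.33, Nr4a1 from -0.10 to 0.30 and Nr4a2 from -0.17 to 0.18. In the macrophage gate Fosb ranged from -0.054 to 0.67, Jun from -0.44 to 0.030, Junb from -0.52 to 0.13, Egr1 from -0.19 to 0.52, Egr2 from -0.46 to 0.023, Nr4a2 from -0.56 to 4.0e-04 and Nr4a3 from -0.14 to 0.97. Against the Cd4 gate, Egr2 ranged from -0.073 to 0.31 in the Foxp3 gate, and Egr1 from -0.035 to 0.17 and Nr4a3 from -0.26 to 0.072 in the macrophage gate. The Foxp3 interaction ranged from -0.023 to 0.12 (Fosb) and -0.026 to 0.052 (Junb). The macrophage interaction ranged from -0.081 to 0.34 (Jun), -0.083 to 0.056 (Jund), -0.47 to 0.30 (Egr1), -0.18 to 0.81 (Nr4a1) and -0.82 to 0.50 (Nr4a3). Differences in the share of cells with 3 or more members ranged from -3.28 to 0.624 percentage points in the Foxp3 gate and -0.655 to 2.26 in the macrophage gate.

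The labels number replicates 1 and 2 in both groups. Correlations of their deviations were 0.0665 and -0.0896 in the Foxp3 gate, 0.167 and -0.113 in the Cd4 gate and -0.0234 and -0.210 in the macrophage gate. With 2 controls the deviations of the controls are exact opposites, so these values cannot decide whether the numbers pair the libraries. The replicate block gave 1 called gene in the Cd4 gate, moved Fos to -0.031 in the Foxp3 gate and changed no member's call. Some alternatives were chosen after seeing the data. These were the ones without C1q-high cells for the macrophage against Cd4 gate and for the Foxp3 interaction, and those with no cell in both gates.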
